A study of Mus musculus with 209 samples.

Results

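The 40 genes described here serve DNA replication and mitosis, and their summed messenger RNA is widely read as a sign of cycling cells. They were taken by symbol from a list of known cell-cycle genes, with earlier results of these data known. All 40 were found among the 55011 genes of the count table. By role, 9 act in DNA replication, 4 in nucleotide supply, 6 are cyclins or the kinase Cdk1, 9 are mitotic kinases, checkpoint or anaphase-promoting complex genes, 6 belong to the spindle and kinetochore, and 6 to chromosome structure. The first 2 roles together with Ccne1 and Ccne2 are called the 15 G1/S genes below, and the other 25 the G2/M genes.

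The series holds 209 RNA sequencing libraries of sorted mouse immune cells, each made from 1000 cells sorted 2 times in succession. In the screen, C57BL/6 mice aged 5 to 8 weeks received PBS (120 µL) or 5 µg of a cytokine in it, which was IL1b, IL6 or TNFa, into a vein, and 14 cell types were sorted 2 h later (183 libraries). In a time course of the same strain (20 libraries), Ly6C+ monocytes (Mo.6C+) and peritoneal macrophages (MFpc) were sorted 2, 4, 8 and 24 h after TNFa, or 24 h after PBS. TNFa was given at 5 µg and the volume was 120 µL, as in the screen. The last experiment (6 libraries) compared Mo.6C+ after 1 ng of LPS, a component of bacterial membranes, with controls that received PBS. The volume was 120 µL for both, and no time is stated.

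MFpc and mast cells (MC) came from the peritoneal cavity, and the other types from the spleen by the sample titles. The myeloid types of the spleen were GN (neutrophils), Mo.6C+, MFrp (macrophages of the red pulp) and the dendritic cells DC.8+ (the CD8+ subset) and pDC (the plasmacytoid subset). The lymphoid types were NK, T.4 and T.8 (T cells with CD4 or with CD8), Treg (the regulatory T cells), Tgd (T cells with the gamma-delta receptor), MZB (B cells of the marginal zone) and B.fo (those of the follicle). Where a sorted type had a marker list, that list was highest, or among the highest, in that type, with an exception. The list of neutrophil primary granule genes was lower in GN with PBS than in MC, MFpc and B.fo, by the sums of separate fits. The monocyte list was higher in MFpc than in Mo.6C+. T.4, T.8 and B.fo had no list of their own, only the shared T cell and B cell lists. A cell type held 4 or 5 PBS libraries and 2 or 3 libraries with each cytokine in the screen, except that no pDC library with IL1b was analysed here. A group of the time course held 2 libraries, and each LPS group held 3. No genotype other than the strain was labelled. Library totals ran from 1094567 to 9291121 counts, with a median of 4702887. The labels do not say that libraries of a group came from separate mice, so p-values measure the spread between libraries, which may be technical. Levels are counts per 1000000 counts of a library scaled within each fit (CPM), so a library's CPM is compared only within 1 fit. In these bulk libraries fewer cycling cells and less messenger RNA per cell cannot be told apart.

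Cells that enter the cycle first switch on the genes that load and fire replication origins and make deoxynucleotides, through E2F transcription factors. The mitotic genes follow, largely through the MuvB complex with B-Myb and FoxM1, which binds the cell-cycle homology region, and through NF-Y at CCAAT boxes. Mature neutrophils do not divide, naive T cells rest, and peritoneal macrophages renew themselves in place.

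Promoters of 5 members are printed below because these genes are described in the neutrophil and macrophage results: Kif11 and Plk1 (spindle motor and mitotic kinase), Mcm2 and Mcm5 (replicative helicase) and Mki67 (Ki-67, the coat of mitotic chromosomes). Each is the 250 bases directly before the gene's start in RefSeq's annotation of GRCm38.p6, written 5′ to 3′ on the gene's strand. Capitals mark matches, on either strand, to the NF-Y box CCAAT, to the cell-cycle homology region (TTTGAA or TTTAAA), or to an E2F site (TTTCCCGC, TTTGGCGC, TTTCGCGC or TTTGCCGC).
Kif11, chr19:37376132-37376381, plus strand: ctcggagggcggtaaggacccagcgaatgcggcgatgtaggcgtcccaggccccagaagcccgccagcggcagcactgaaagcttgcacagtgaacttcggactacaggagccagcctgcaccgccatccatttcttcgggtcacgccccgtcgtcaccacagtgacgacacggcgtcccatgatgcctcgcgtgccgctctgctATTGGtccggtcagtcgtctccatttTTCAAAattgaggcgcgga
Plk1, chr7:122159185-122159434, plus strand: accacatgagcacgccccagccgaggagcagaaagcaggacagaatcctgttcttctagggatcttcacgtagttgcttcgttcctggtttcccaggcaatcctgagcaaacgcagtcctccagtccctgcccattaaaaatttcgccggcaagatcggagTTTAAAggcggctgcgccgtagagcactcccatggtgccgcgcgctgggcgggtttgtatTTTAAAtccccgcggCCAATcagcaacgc
Mcm2, chr6:88898781-88899030, minus strand: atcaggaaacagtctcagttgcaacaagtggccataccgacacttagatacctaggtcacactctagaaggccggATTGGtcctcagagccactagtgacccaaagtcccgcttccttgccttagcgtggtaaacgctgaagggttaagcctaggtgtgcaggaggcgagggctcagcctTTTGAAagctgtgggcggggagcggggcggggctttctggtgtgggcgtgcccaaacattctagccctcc
Mcm5, chr8:75109259-75109508, plus strand: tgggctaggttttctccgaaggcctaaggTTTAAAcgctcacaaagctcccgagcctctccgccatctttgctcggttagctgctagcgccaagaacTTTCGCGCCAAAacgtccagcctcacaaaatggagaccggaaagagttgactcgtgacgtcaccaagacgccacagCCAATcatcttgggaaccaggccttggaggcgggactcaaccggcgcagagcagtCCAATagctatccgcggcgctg
Mki67, chr7:135716380-135716629, minus strand: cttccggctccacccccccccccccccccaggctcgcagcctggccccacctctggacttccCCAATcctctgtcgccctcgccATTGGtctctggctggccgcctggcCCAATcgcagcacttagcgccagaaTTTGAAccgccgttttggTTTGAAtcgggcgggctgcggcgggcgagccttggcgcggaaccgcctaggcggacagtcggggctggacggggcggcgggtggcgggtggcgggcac

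Of the 40 members, 32 had a promoter entry in RefSeq's table. A CCAAT box stood in 27 of the 32 (84.4%), against 34.5% of all 27025 promoter windows of that length. A homology-region match stood in 18 of the 32 (56.2%), against 25.5% of all windows, and these were 14 of the 20 G2/M entries and 4 of the 12 G1/S entries. An E2F match stood in 5 of the 32 (15.6%), those of Cdk1, Mcm5, Mcm6, Mcm7 and Ncapd2, against 1.91% of all windows. The capitals in Mcm5 include 2 overlapping E2F matches. The Mki67 window holds 3 CCAAT boxes and 2 homology-region matches. A match is a description of the sequence only.

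The first comparison asked how the 14 cell types differed in these genes with PBS alone, over 66 libraries and 17153 genes tested. The mean log2 CPM of the 40 members was highest in MFrp, 5.76 ± 1.89 (SD, n = 5), MFpc, 5.66 ± 0.52 (SD, n = 5), and DC.8+, 5.61 ± 0.18 (SD, n = 4). It was lowest in T.4, 2.42 ± 0.15 (SD, n = 5), and GN, 1.90 ± 1.48 (SD, n = 5). Between them came MC at 5.15, Treg at 4.84, NK at 4.45, Tgd at 4.18, T.8 at 4.04, MZB at 3.70, Mo.6C+ at 3.37, pDC at 3.28 and B.fo at 3.03. Most neighbours in this order differed by less than the spread of their libraries, as the plot of library means by cell type shows.

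**Figure D1:**
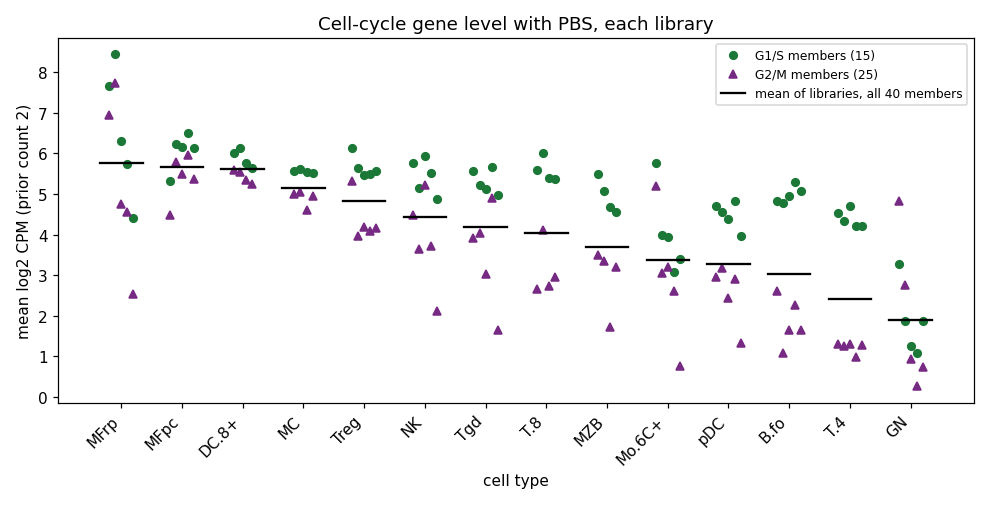
Mean log2 CPM (prior count 2) of the 15 G1/S and the 25 G2/M genes in each PBS library of the screen, by cell type, in the order of the mean over all 40 genes. A short line is that mean over libraries. The MFrp, Mo.6C+ and GN libraries spread widest, and the T.4 libraries lie together with their G2/M genes below their G1/S genes.

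Against the mean of the other 13 types, edgeR's quasi-likelihood test placed 34 of the 40 members higher in MFpc and 1 lower, where 27.3% and 18.7% of all genes were higher and lower. All 9 of the kinase and checkpoint genes, all 6 spindle genes and all 4 nucleotide genes were among those higher. Gins2, part of the replicative helicase, measured 11.3, 19.2, 16.7, 31.1 and 20.005 CPM in the MFpc libraries and was higher by a log2 difference of 2.22 (SE 0.29, adjusted p 2e-09). Aurkb, the kinase of the chromosomal passenger complex, measured 39.9, 76.6, 67.0, 89.0 and 53.6 CPM (log2 difference 2.19, SE 0.36, adjusted p 6.4e-07). Mki67 measured 33.6, 106, 84.2, 110 and 71.6 CPM (log2 difference 1.75, SE 0.39, adjusted p 0.00016). Library 1 was the lowest of the 5 for each of these genes. Per kilobase of exon, the helicase genes Mcm3 (58.7 CPM per kb) and Mcm6 (57.8) stood highest among the members in MFpc, and Cenpf, a kinetochore gene, lowest (1.69).

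In DC.8+, 29 members were higher and 1 lower (25% and 11.2% of all genes), again with all 9 kinase and checkpoint genes and all 6 spindle genes. The spindle checkpoint gene Bub1b measured 94.99, 81.3, 75.6 and 44.4 CPM there (log2 difference 2.61, SE 0.46, adjusted p 3.2e-06). In MC, 15 were higher and 2 lower (26% and 23.7%). Mast cells were highest in Mcm3, at 254, 313, 270 and 301 CPM (log2 difference 1.62, SE 0.26, adjusted p 3.1e-07), while Mcm5, a subunit of the same helicase, did not pass (log2 difference -0.25, adjusted p 0.733).

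In MFrp, 39 members were higher and 0 lower (26.6% and 15.4% of all genes), with 40 tested. The 5 libraries did not agree: the summed CPM of the members was 7852, 13446, 2405, 1881 and 811. The summed CPM of the erythroid marker list in the same libraries was 28440, 55038, 28719, 2875 and 1211. Rrm2, the regulated subunit of ribonucleotide reductase, measured 790, 1599, 230.2, 155 and 14.8 CPM. Without libraries 1, 2 and 3, the haemoglobin-rich ones, 3 members were higher in MFrp. That count comes from 2 MFrp libraries in place of 5. The share of all genes higher in that fit is not given here, so the 3 cannot be set against the 39.

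The 2 lowest types were low in different members. In GN, 18 members were lower and 1 higher (31.3% and 31.7% of all genes), and 14 of the 15 G1/S genes but 4 of the 25 G2/M genes were lower. The median log2 difference was -2.56 over the G1/S and -0.76 over the G2/M genes. All 9 replication genes were lower. Pcna, the sliding clamp of the DNA polymerases, measured 6.45, 1.47, 7.03, 0.737 and 5.21 CPM in GN (log2 difference -3.74, SE 0.31, adjusted p 1.3e-16), and its mean in the other 13 types lay between 33.5 and 115 CPM. Mcm3 measured 12.6, 0, 1.11, 0.368 and 0 CPM (log2 difference -5.41, SE 0.47, adjusted p 8e-16). Mki67, in contrast, measured 87.3, 70.3, 45.5, 24.7 and 19.5 CPM and was the 1 member higher (log2 difference 0.99, SE 0.44, adjusted p 0.0444), a call that did not hold in DESeq2. Top2a (-1.18, adjusted p 0.0784), Rrm2 (-1.29, 0.102) and Ccnb2 (0.22, 0.832) did not pass. GN library 1 was the highest for Mki67 and Mcm3, and without it 28 members were lower in GN.

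In T.4, 26 members were lower and 2 higher (15.6% and 22.9%), and here 20 of the 25 G2/M but 6 of the 15 G1/S genes were lower. The medians were -0.40 over the G1/S and -3.68 over the G2/M genes. All 6 spindle genes were lower, and 2 of the 9 replication genes. Aurkb measured 0.21, 0, 0.69, 0.418 and 1.66 CPM (log2 difference -5.16, SE 0.79, adjusted p 1.7e-07). Mki67 measured 1.68, 5.30, 1.15, 0 and 0.828 CPM (log2 difference -4.12, SE 0.74, adjusted p 4.6e-06). Mcm5 measured 45.7, 61.9, 56.3, 76.7 and 28.7 CPM and did not pass (log2 difference -0.45, adjusted p 0.428). The T.4 libraries therefore held helicase transcripts near the average of the other types and few mitotic ones, where the GN libraries held few helicase transcripts. B.fo had 14 members lower (14.1% of all genes), or 8 without library 2. Its Mki67 mean was 2.80 CPM and its log2 difference -3.47 (SE 0.70, adjusted p 4.3e-05), while Mcm5 did not pass (0.38, adjusted p 0.481). In pDC 8 members were lower (11.8%), or 5 without library 1 or library 3. In Mo.6C+ 8 were lower and 1 higher (14.6% and 22.9%), or 16 lower without library 1.

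Smc4, a condensin subunit that compacts chromosomes, followed an order of its own (gene at chr3:69004738-69034623, + strand). It measured 778, 843, 885, 1080 and 972 CPM in Treg (log2 difference 2.50, SE 0.14, adjusted p 8e-23). Its means were 862 ± 110 CPM in Tgd (SD, n = 5), 460 ± 40.4 in T.4 (SD, n = 5) and 381 ± 41.6 in T.8 (SD, n = 4). All other types lay between 56.1 CPM in Mo.6C+ and 198 CPM in MC. The 4 T cell types thus ranked highest, T.4 included (log2 difference 1.44, SE 0.16, adjusted p 1.8e-11). Tk1, the salvage thymidine kinase, was higher in MZB than in the mean of the other types, at 68.2, 59.2, 50.4 and 81.4 CPM (log2 difference 1.57, SE 0.24, adjusted p 1.8e-07). In MZB 1 member was higher and 2 lower (21.2% and 14.2%). Few members set the remaining types apart: 4 were higher in NK (21.6%), 3 in Treg (23.7%), 3 in Tgd with 2 lower (22.1% and 9.33%), and 4 in T.8 with 1 lower (21.6% and 8.84%). Mcm6, a helicase subunit, was the highest-ranked of those in NK, at 380, 313, 303, 251 and 276 CPM (log2 difference 1.17, SE 0.23, adjusted p 3.5e-05), and Ccne1, a cyclin of S phase entry, was higher in T.8 at 47.6, 57.6, 43.5 and 39.8 CPM (log2 difference 2.00, SE 0.42, adjusted p 0.00012).

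Related types were also set against each other. Treg exceeded T.4 in 24 members and was below it in 0 (6.48% of all genes were higher). Aurkb differed by 5.27 on the log2 scale (SE 0.87, adjusted p 6e-06), with 34.7, 32.1, 19.6, 13.4 and 11.7 CPM in the Treg libraries, all above those of T.4. Mki67 differed by 4.49 (SE 0.82, adjusted p 4.6e-05), with 47.0, 26.1, 50.4, 44.0 and 41.6 CPM in Treg. T.8 exceeded T.4 in 14 members (7.73%). Bub1, a spindle checkpoint kinase, had no count in T.4 and was at least 56.8-fold higher in Treg and at least 22.4-fold higher in T.8, against 3 counts over the T.4 group. DC.8+ exceeded pDC in 32 members (15.2%), and Mo.6C+ lay below MFpc in 25 (16%). Between Tgd and T.8 (1 member, 2.66%) and between NK and Tgd (1 member lower, 9.5%) the member past the threshold was Smc4. MZB exceeded B.fo in 2 members (4.61%), MFpc lay below MFrp in 8 (19.2%), Mo.6C+ exceeded GN in 14 and lay below it in 1 (30.5% and 25.8%), and MC exceeded MFpc in 1 and lay below it in 3 (19.8% and 24.7%). The 10 pairs share groups with each other.

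The second comparison asked what each cytokine did to these genes in GN 2 h after injection. It used 14 libraries and 11201 genes, with 39 members tested. Gins2 was too low to be tested. The 3 cytokines share the 5 PBS libraries, so their values are set side by side. The summed CPM of the 40 members was 568, 217, 136, 120 and 153 with PBS, 146, 700 and 611 with IL1b, 1122, 1675 and 1246 with IL6, and 152, 130 and 148 with TNFa. The IL6 libraries thus lay above all the others, and library 1 with IL1b lay apart from the other 2 of its group. With TNFa, Mki67 (mean 65.4 CPM) and Smc4 (41.2) made up most of the mean sum of 143 CPM. The G1/S genes summed to 34 to 133 CPM with PBS and 14 to 19 with TNFa. The G2/M genes summed to 64 to 436 and 115 to 134 CPM.

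With IL6, 13 of the 39 members rose by edgeR's test and 0 fell (5.23% of all genes rose), and 35 members had an unadjusted p under 0.05. Of those that were lower, 0 had an unadjusted p under 0.05, and DESeq2 called 0 lower. Their median log2 change was 2.97, against -0.05 for all genes. In 30 of the 39, each IL6 library lay above each PBS library, as it did for 11.2% of all genes. Among the members that rose were 4 of 6 chromosome structure genes, 3 of 9 kinase and checkpoint genes, 2 of 6 spindle genes, 2 of 6 cyclins and Cdk1, 2 of 8 replication genes tested and 0 of 4 nucleotide genes. By phase, 11 of 25 G2/M (median 3.29) and 2 of 14 G1/S genes rose (median 2.63).

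Plk1, a kinase of mitotic entry, measured 5.09, 0.884, 0, 0 and 0.459 CPM with PBS and 31.2, 58.9 and 30.6 CPM with IL6. It rose by 4.87 on the log2 scale (SE 1.1, adjusted p 0.0102), with no overlap. Ncapd2, a condensin subunit, measured 4.16, 1.24, 0.38, 0.192 and 0.918 CPM with PBS and 23.2, 50.5 and 32.0 CPM with IL6 (log2 change 4.61, SE 0.91, adjusted p 0.00492). Smc4 had the smallest adjusted p (0.00251) and a small change of 1.00 (SE 0.18), from 60.1, 47.4, 54.5, 40.6 and 42.2 CPM to 86.7, 113 and 95.8 CPM. The 2 groups did not overlap for either condensin gene.

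Mcm2, the helicase subunit whose promoter is printed above, measured 2.77, 1.77, 0.95, 0.575 and 1.15 CPM with PBS and 6.64, 24.95 and 8.71 CPM with IL6 (log2 change 3.18, SE 0.66, adjusted p 0.00671). Mki67 rose from 41.8, 33.9, 23.4, 12.8 and 10.3 CPM to 67.6, 80.6 and 72.9 CPM (log2 change 1.58, SE 0.40, adjusted p 0.0206). Ccna2, the S and G2 phase cyclin, rose from 12.2, 6.01, 0.38, 0.192 and 0 CPM to 48.8, 72.2 and 57.2 CPM (log2 change 3.93, SE 1.02, adjusted p 0.023). PBS library 1 was the highest of its group for all 3 genes, and the groups still did not overlap. Kif11, which pushes spindle poles apart, rose by 4.00 (SE 1.06, adjusted p 0.0255), and Ccnb1, the mitotic cyclin, by 3.52 (SE 0.94, adjusted p 0.0264).

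Several members with changes of the same size did not pass. Top2a, which untangles replicated DNA, measured 32.4, 10.2, 0.19, 0.767 and 2.53 CPM with PBS and 71.6, 115 and 90.6 CPM with IL6 (log2 change 3.29, SE 1.05, adjusted p 0.0583). Mcm5 had a log2 change of 3.37 (adjusted p 0.0727), Ccnb2, a B-type cyclin, 2.78 (0.0913) and Rrm2 2.76 (0.127). Mcm4, another helicase subunit, was at 27.1, 21.7, 13.5, 33.6 and 31.7 CPM with PBS and 19.6, 30.1 and 24.2 CPM with IL6 (log2 change -0.05, adjusted p 0.965). The count of 13 rested on single libraries: it was 30 without PBS library 1, 20 without IL1b library 1, and 6, 6 and 7 without PBS library 2, 3 or 4. Without IL6 library 1, 2 or 3 it was 5, 2 and 5. With the replicate number added to the fit as a block it was 1.

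**Figure D2:**
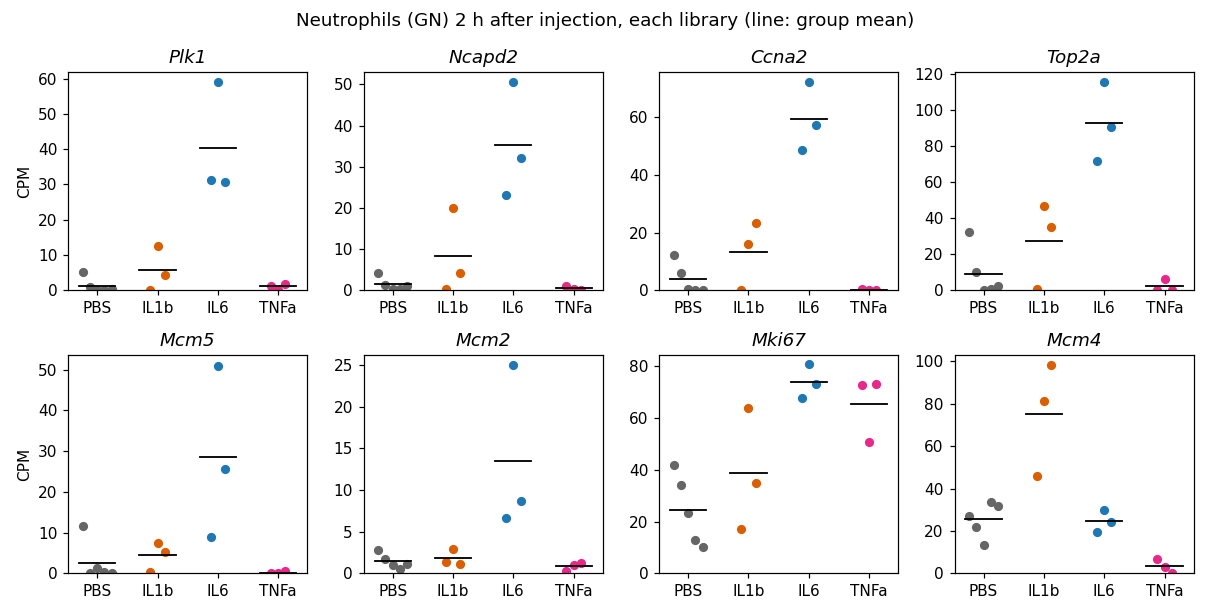
CPM of 8 members in each GN library with PBS, IL1b, IL6 and TNFa. A line is the group mean. Plk1, Ncapd2, Ccna2 and Top2a stand highest with IL6, Mcm4 stands highest with IL1b and lowest with TNFa, and Mki67 is high with both IL6 and TNFa.

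Lists of neutrophil granule genes also differed between the GN groups. The secondary granule list (8 genes) summed to 3515 to 28648 CPM with PBS, 45535 to 65179 with IL1b, 68940 to 90218 with IL6 and 81628 to 93208 with TNFa. The primary granule list (8 genes) summed to 32 to 315 CPM with PBS, 530 to 1014 with IL1b, 810 to 1271 with IL6 and 687 to 968 with TNFa. This list was not particular to GN. With PBS, and each in its own fit, it summed to 9434 to 11769 CPM in MC, 520 to 676 in MFpc and 513 to 624 in B.fo. Of its members, Fcnb, a ficolin of immature neutrophils, measured 60.9, 7.25, 4.37, 0 and 0 CPM with PBS and 122, 317 and 168 CPM with IL6, but 8.97, 0 and 3.38 CPM with TNFa. Mpo, the myeloperoxidase of early precursors, was at or under 0.76 CPM in every GN library. Erythroid and NK lists summed to 0 to 4 CPM. The progenitor list summed to 10 to 22 CPM with PBS and 59 to 123 with IL1b. It summed to 40 to 56 with IL6 and 31 to 74 with TNFa. The mast cell list summed to 1345 to 2292 CPM with PBS, 4552 to 9487 with IL1b and 12258.5 to 13739 with TNFa. The peritoneal macrophage list summed to 102 to 173 CPM with PBS and 585 to 860 with TNFa. That of red pulp macrophages was lower, at 2382 to 2858 CPM with PBS, 741 to 873 with IL1b and 817 to 1046 with TNFa. The part of any of these in the results was not tested.

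With IL1b, 1 member rose and 0 fell in GN (12.9% of all genes rose). It was Mcm4, which measured 46.0, 81.5 and 98.0 CPM, above each PBS library (log2 change 1.56, SE 0.41, adjusted p 0.0108). Mki67 measured 17.1, 63.9 and 35.04 CPM (log2 change 0.65, adjusted p 0.292). The median over members was 1.15. IL1b library 1 lay at or near the PBS level in Top2a, at 0.507 CPM beside 46.6 and 35.04 CPM in the others. The count of 1 became 4 without IL1b library 1, 17 without PBS library 1 and 0 without IL1b library 3.

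With TNFa, 5 members fell and 1 rose in GN (19% and 18.5% of all genes), and the median was -2.35, or -2.32 with the 2 members that had no count set at their bound. Mcm4 measured 6.86, 2.80 and 0.307 CPM, below each PBS library (log2 change -2.89, SE 0.54, adjusted p 0.00038). Tk1 fell from 4.78, 4.59, 3.04, 10.4 and 5.51 CPM to 0.528, 1.05 and 1.54 CPM (log2 change -2.43, SE 0.62, adjusted p 0.00478). Rrm1, the large subunit of ribonucleotide reductase, fell from 15.6, 13.3, 0.19, 0.767 and 10.1 CPM to 0.792, 1.75 and 0.307 CPM (log2 change -3.09, SE 1.11, adjusted p 0.0366), with overlap. Mki67 went the other way, to 72.6, 50.7 and 72.8 CPM, above each PBS library (log2 change 1.41, SE 0.41, adjusted p 0.0111). Bub1b had 1 count over the TNFa group, a ratio to PBS of 0.0245 with a 95% counting interval of 0.000616 to 0.140. Cdca8, of the chromosomal passenger complex, had 3 counts, a ratio of 0.0342 with an interval of 0.00700 to 0.101. PBS library 1 held 71 of the 111 Bub1b counts and 202 of the 239 Cdca8 counts with PBS. Without it the ratios were 0.0517 (0.00128 to 0.305) for Bub1b and 0.168 (0.0331 to 0.530) for Cdca8, and neither passed the test (adjusted p 0.0533 and 0.19). The count of 5 was 2 without PBS library 1 or any 1 of the 3 TNFa libraries, 9 without PBS library 4 and 10 without IL1b library 1.

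Set directly against each other, IL6 exceeded TNFa in 33 of 39 members and was below it in 0 (16.8% of all genes were higher). Smc4 differed by 1.25 (SE 0.21, adjusted p 0.00021), whereas Mki67 did not pass (0.17, adjusted p 0.805). IL1b exceeded TNFa in 13 members (11.5%), with Mcm4 differing by 4.45 (SE 0.58, adjusted p 2.4e-05). That count was 4 and 3 without IL1b library 2 or 3, 8 without IL6 library 3, and 5, 4 and 3 without TNFa library 1, 2 or 3. IL6 against IL1b gave 1 member higher, Mcm2 (log2 difference 2.88, SE 0.79, adjusted p 0.0189), and 1 lower, Mcm4 (-1.61, SE 0.48, adjusted p 0.0306), where 4.87% and 9.89% of all genes were higher and lower.

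**Figure D3:**
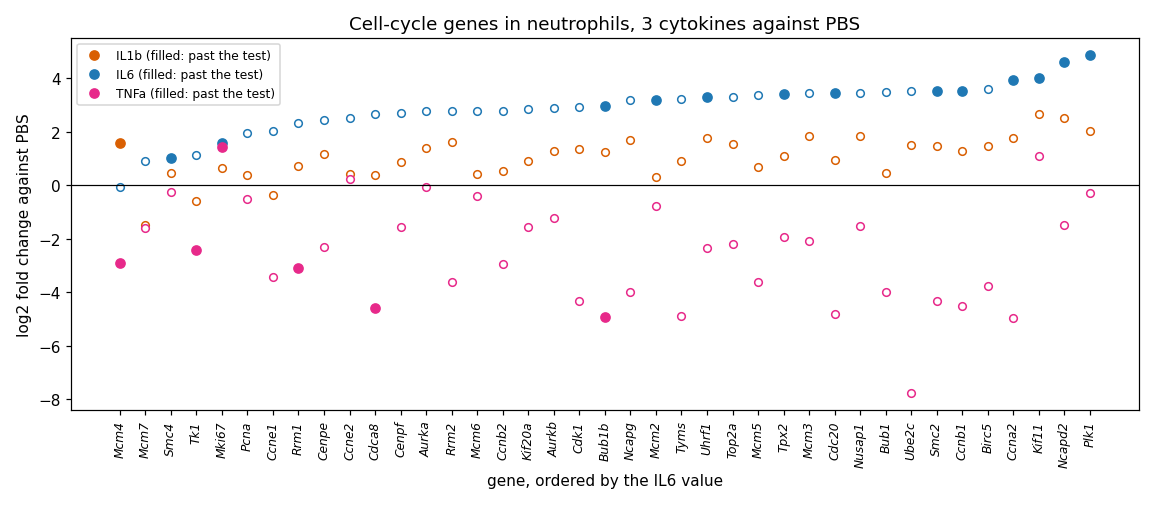
Log2 change against PBS of the 39 members tested in GN with IL1b, IL6 and TNFa, in the order of the IL6 value. Filled points passed the test. The IL6 points lie above 0 but for Mcm4, most TNFa points lie below 0, and Mki67 is above 0 with all 3.

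Other cell-cycle genes, taken from lists that hold no member, gave these counts in GN. Of all genes 5.23% rose with IL6, and 18.5% rose and 19% fell with TNFa. The share that fell with IL6 is not given here. With IL6, 10 of 34 other mitosis genes rose and 0 fell, led by Melk (log2 change 4.98), Kif22 (2.67) and Mad2l1 (2.54). Of 23 other replication genes 2 rose, Dnmt1 (2.29) and Chaf1a (3.18). Of 23 cell-cycle regulators 4 rose and 1 fell, with Cdk2 at 2.04, Foxm1 at 3.18 and the pocket protein Rbl2 at -1.01. Of 14 inhibitor and quiescence genes 0 rose and 4 fell, among them Btg1 (-0.73), Gadd45b (-1.16) and Klf2 (-0.82). With TNFa, 5 of the inhibitor genes rose and 3 fell, with Ccng2 at 2.27 and Gadd45b at 2.28, and Rbl2 stood at 1.36. With IL1b, Cdkn1a (p21) rose by 5.61.

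The response in GN was set against that in Mo.6C+, another myeloid type of the spleen, by an interaction term over 13928 genes. The IL6 response was more positive in GN for 14 members and less so for 0 (3.3% of all genes). Smc4 differed by 1.91 (SE 0.31, adjusted p 0.00034), Ncapd2 by 6.61 (SE 1.46, adjusted p 0.00664), Mcm2 by 4.13 (SE 0.98, adjusted p 0.0116) and Mcm5 by 4.51 (SE 1.26, adjusted p 0.0314). Mki67 (2.14, adjusted p 0.077), Top2a (5.17, 0.0639), Rrm2 (5.05, 0.0942) and Ccnb2 (3.70, 0.191) did not pass. The count of 14 was 31 without GN PBS library 1, 7 and 9 without Mo.6C+ PBS library 1 or 3, 6, 5 and 3 without Mo.6C+ IL6 library 1, 2 or 3, and 6 and 8 without GN IL6 library 2 or 3. The TNFa response was lower in GN for Tk1 (-3.62, SE 0.65, adjusted p 0.00013) and Mcm4 (-2.99, SE 0.55, adjusted p 0.00019), 2 members where 15% of all genes were lower. The IL1b response differed for Smc4 alone (1.03, SE 0.31, adjusted p 0.0257, with 6.89% of all genes higher), and not without Mo.6C+ PBS library 1, Mo.6C+ IL1b library 1, or GN IL1b library 2 or 3.

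Outside GN, with 1 fit per cell type, IL6 raised 0 members by edgeR's test over the other 13 types, where 5 were higher at an unadjusted p under 0.05 and DESeq2 called 0. It lowered 3: Ccna2 in pDC (0.0162% of all genes), and Smc4 in Mo.6C+ (log2 change -0.87, with 2.09% of all genes) and in T.4 (1.19%). IL1b, tested in 12 of these types, gave 4 raised and 8 lowered calls. It raised Mki67 in MFpc (20.7% of all genes), Mcm4 in Treg (2.19%), and Mcm4 and Top2a in T.4 (3.37%). It lowered Smc4 in DC.8+ (1.44%), Treg (1.08%), T.4 (2.6%) and B.fo (0.343%), with 2 members lowered in MFpc (16.6%) and 2 in Mo.6C+ (17.6%). TNFa gave 8 raised and 58 lowered calls. By type, TNFa lowered 13 of 38 members tested in pDC (7.18% of all genes), 10 of 40 in MFpc (26.7%), 8 in Mo.6C+ (24.4%), 8 in DC.8+ (7.48%), 6 in Treg (2.29%), 5 in MFrp (10.1%) and 5 in NK (7.93%). It lowered 1 each in T.4 (2.96%), T.8 (0.144%) and B.fo (1.7%), and raised 2 in MFpc (26.6%), 2 in DC.8+ (8.05%) and 1 each in Mo.6C+ (24.3%), pDC (7.23%), Tgd (1.89%) and T.4 (3.6%). These counts moved with single libraries: pDC had 22 without PBS library 5 and 7 and 6 without TNFa library 2 or 3, MFpc 16 and 5 without PBS library 1 or 4 and 3 and 4 without TNFa library 2 or 3, and Treg 3, 13 and 2 without TNFa library 1, 2 or 3. Mo.6C+ had 5 without PBS library 1 or TNFa library 2, DC.8+ 5 and 4 without PBS library 1 or 2 and 3 without TNFa library 1. MFrp had 9 and 26 without PBS library 4 or 5 and 3, 1 and 1 without TNFa library 1, 2 or 3. NK had 3 and 12 without PBS library 3 or 5 and 3 without TNFa library 1 or 2. In MFrp the erythroid marker list summed to 25187, 50318, 26374, 2705 and 1181 CPM with PBS and 1166, 11146 and 2520 CPM with TNFa. It summed to 1740 to 6764 CPM with IL1b and 1994 to 3267 CPM with IL6. All 40 members had a negative log2 change in MFrp with each cytokine, with medians of -1.13 (IL1b), -1.27 (IL6) and -2.06 (TNFa). The part of the erythroid list in the MFrp results was not tested.

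Single genes recurred across types with TNFa. Smc4 fell in 7 types (MFpc, Mo.6C+, pDC, Treg, T.4, T.8 and B.fo), and Mcm7, a helicase subunit, in 4 (MFpc, MFrp, Mo.6C+ and DC.8+). Tk1 rose in Mo.6C+, DC.8+ and pDC, and fell in GN. In Mo.6C+ it measured 23.8, 16.4, 16.0, 22.4 and 10.8 CPM with PBS and 28.1, 34.7 and 44.4 CPM with TNFa (log2 change 1.00, SE 0.30, adjusted p 0.0121), while Aurkb fell there by 3.05 on the log2 scale (SE 0.52, adjusted p 0.00013). Mki67 rose in MFpc and DC.8+ and fell in NK and Treg. In MFpc it went from 23.7, 74.6, 58.9, 75.8 and 50.2 CPM to 202, 172 and 177 CPM (log2 change 1.70, SE 0.23, adjusted p 2.5e-06). The other member raised in MFpc was Tyms, thymidylate synthase (0.74, SE 0.18, adjusted p 0.00186). Mcm7 fell in the same libraries, from 51.4, 86.3, 82.3, 113 and 84.0 CPM to 64.1, 42.8 and 46.2 CPM (log2 change -0.71, SE 0.24, adjusted p 0.017).

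The third comparison followed Mo.6C+ and MFpc over 24 h after TNFa. All 4 times of a cell type share its 2 PBS libraries, taken at 24 h, so at 2, 4 and 8 h the time since injection and TNFa cannot be told apart. With PBS, 19 members were lower in Mo.6C+ than in MFpc and 0 higher (15.6% of all genes were lower), or 9 without Mo.6C+ PBS library 2 and 11 without MFpc PBS library 1. The summed CPM of the 40 members in Mo.6C+ was 698 and 601 with PBS, then 1657 and 1781 at 2 h, 984 and 1833 at 4 h, 3154 and 1626 at 8 h, and 2115 and 1951 at 24 h. In MFpc it was 1752 and 1762 with PBS, then 569 and 658 at 2 h, 535 and 826 at 4 h, 857 and 663 at 8 h, and 701 and 726 at 24 h. Each TNFa library of Mo.6C+ lay above both PBS libraries, and each of MFpc below.

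**Figure D4:**
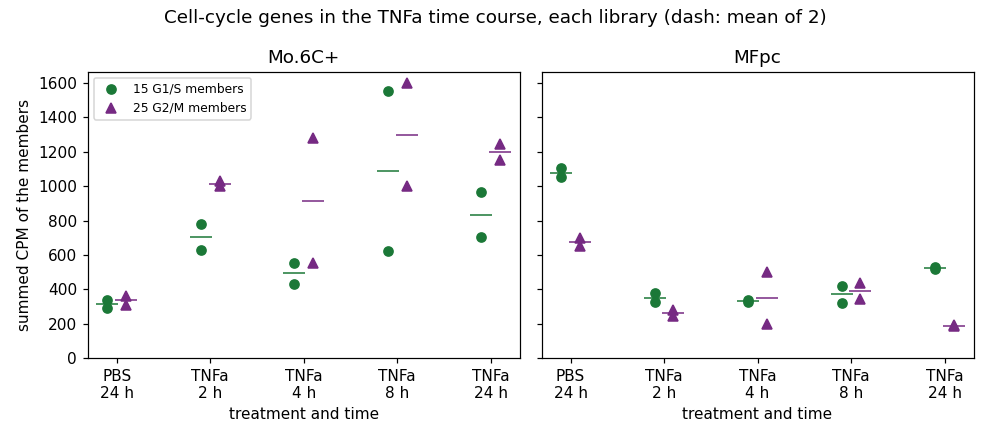
Summed CPM of the 15 G1/S and the 25 G2/M genes in each library of the time course, by cell type, with PBS at 24 h and TNFa at 2, 4, 8 and 24 h. A dash is the mean of 2 libraries. The Mo.6C+ sums stand above their PBS level at every time and the MFpc sums below it.

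In Mo.6C+, with 12647 genes tested, 27, 20, 36 and 20 members rose at 2, 4, 8 and 24 h and 0 fell at any of them by edgeR's test. At each time 0 were lower at an unadjusted p under 0.05, and DESeq2 called 0 lower. The shares of all genes that rose were 19.7%, 15.9%, 11.5% and 2.74%, and the members' median log2 changes were 1.49, 1.26, 1.92 and 1.82. At 2 h 8 of 15 G1/S and 19 of 25 G2/M genes rose, at 4 h 2 and 18, at 8 h 14 and 22, and at 24 h 4 and 16. The replication genes went from 1 of 9 at 4 h to 9 of 9 at 8 h, whereas all 6 spindle genes rose at both times. The counts at 24 h were 3 and 0 without PBS library 1 or 2, 9 without either 24 h library, and 32 without 1 of the 8 h libraries. At 2 h they were 17 and 16 without PBS library 1 or 2, at 4 h 8 without PBS library 2 and 4 without 4 h library 2, and at 8 h 22 and 17 without PBS library 1 or 2 and 22 without 8 h library 1.

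Mki67 in Mo.6C+ measured 32.8 and 24.5 CPM with PBS and 150 and 124 CPM at 2 h (log2 change 2.25, SE 0.29, adjusted p 8.5e-05). It was at 65.6 and 102 CPM at 4 h, 98.9 and 65.2 CPM at 8 h, and 104 and 104 CPM at 24 h, with log2 changes of 1.55, 1.52 and 1.86. It passed the test at all 4 times. Top2a went from 57.8 and 48.8 CPM to 168 and 216 CPM at 2 h (log2 change 1.85, SE 0.39, adjusted p 0.00275) and stood at 177 and 182 CPM at 24 h (1.75, adjusted p 0.023). Bub1 went from 4.95 and 2.79 CPM to 22.5 and 34.0 CPM at 2 h (log2 change 2.86, SE 0.55, adjusted p 0.0015). The checkpoint partner Bub1b did not pass at 2 h, at 20.5 and 27.6 CPM beside 24.4 and 13.1 CPM with PBS, and rose later, to 119 and 134 CPM at 8 h (log2 change 2.75, SE 0.35, adjusted p 0.0002). Mcm3 rose most at 8 h, to 265 and 132 CPM from 46.4 and 46.0 CPM (log2 change 2.10, SE 0.30, adjusted p 0.00039), where the 2 libraries differed by a wide margin.

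Mcm5 in Mo.6C+ measured 37.8 and 31.9 CPM with PBS, 90.9 and 138 CPM at 2 h, 54.3 and 65.2 CPM at 4 h, 182 and 61.9 CPM at 8 h, and 170 and 122 CPM at 24 h. Its log2 changes were 1.72 (adjusted p 0.00589), 0.78 (0.169), 1.81 (0.00778) and 2.07 (0.0139), so it did not pass at 4 h. Ccnb2 and Rrm2 also missed the threshold at 4 h (0.72, adjusted p 0.151, and 0.72, 0.259) and passed at 2, 8 and 24 h. Ube2c, the ubiquitin carrier of the anaphase-promoting complex, rose at 4 h by 2.16 (SE 0.40, adjusted p 0.00133), and Tpx2, a spindle assembly factor, at 24 h by 2.54 (SE 0.42, adjusted p 0.00457). Cdk1, the kinase that drives mitotic entry, was at 10.8 and 5.78 CPM with PBS and 45.3 and 33.2 CPM at 2 h (log2 change 2.23, SE 0.45, adjusted p 0.00192), and passed at all 4 times. Tk1 did not pass at any time in Mo.6C+, nor did Aurkb, which stood at 24.9 and 21.3 CPM with PBS and 50.9 and 56.5 CPM at 24 h.

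In MFpc, with 12376 genes tested, 34, 22, 16 and 25 members fell at 2, 4, 8 and 24 h (18.1%, 16.9%, 12.8% and 2.86% of all genes), and 1, 2, 0 and 0 rose (18.1% and 18.7% of all genes at 2 and 4 h). The medians were -2.86, -1.27, -1.09 and -1.91. At 2 h 12 of 15 G1/S and 22 of 25 G2/M genes fell. At 8 h 11 G1/S genes but 5 G2/M genes fell, with 8 of 9 replication genes, 1 of 6 spindle genes and 0 of 9 kinase and checkpoint genes. At 24 h 11 and 14 fell. The 4 h count was 14 without PBS library 1 and 12 without 4 h library 1, the 8 h count 10 without PBS library 2, and the 24 h count 13 and 11 without PBS library 1 or 2 and 14 without 24 h library 1.

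Mcm5 in MFpc fell from 104 and 96.9 CPM with PBS to 23.6 and 27.5 CPM at 2 h (log2 change -1.97, SE 0.21, adjusted p 1.3e-05), 18.0 and 17.3 CPM at 4 h, 16.9 and 12.4 CPM at 8 h, and 32.0 and 37.2 CPM at 24 h (-1.53, SE 0.20, adjusted p 0.00073). Mcm7 fell from 74.7 and 90.1 CPM to 9.19 and 12.8 CPM at 2 h (log2 change -2.91, SE 0.28, adjusted p 4.5e-06), remained at 8.81 and 7.82 CPM at 8 h, and stood at 36.9 and 32.4 CPM at 24 h. Both helicase genes were past the threshold at all 4 times. Ncapd2 fell at each time too, from 45.4 and 36.9 CPM to 5.81 and 6.61 CPM at 2 h (log2 change -2.73, SE 0.29) and 15.8 and 19.4 CPM at 24 h.

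Other members in MFpc were low at 2 h and again at 24 h, and nearer to PBS between. Ccnb2 went from 38.3 and 28.8 CPM to 1.12 and 0.882 CPM at 2 h (log2 change -5.02, SE 0.68, adjusted p 9.3e-05), 6.11 and 21.6 CPM at 4 h, 37.3 and 32.5 CPM at 8 h (0.06, adjusted p 0.941) and 5.54 and 1.66 CPM at 24 h (-3.20). Rrm2 went from 45.4 and 31.1 CPM to 0.75 and 3.53 CPM at 2 h (log2 change -4.20, SE 0.54, adjusted p 6e-05) and to 52.2 and 24.3 CPM at 8 h (0.01, adjusted p 0.992). Ccna2 stayed past the threshold at all 4 times, at 29.7 and 33.5 CPM with PBS, 9.5 and 8.71 CPM at 8 h and 4.26 and 3.18 CPM at 24 h (-3.08). At 24 h Ccnb1 and Plk1 had 3 and 2 counts over the group, ratios to PBS of 0.0229 (95% counting interval 0.00467 to 0.0684) and 0.017 (0.00204 to 0.0628).

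Mki67 went against the other members in MFpc. It rose from 45.3 and 41.5 CPM with PBS to 144 and 153 CPM at 2 h (log2 change 1.78, SE 0.24, adjusted p 9.3e-05) and 64.6 and 92.4 CPM at 4 h (0.86, SE 0.24, adjusted p 0.013). It did not pass at 8 h, at 22.6 and 36.3 CPM (-0.57, adjusted p 0.0995), and fell to 8.38 and 10.4 CPM at 24 h (-2.20, SE 0.27, adjusted p 0.00037). Tyms was the other member raised at 4 h, at 66.0 and 47.8 CPM from 28.7 and 36.6 CPM (log2 change 0.80). Mki67 and Tyms were also the 2 raised in the separate MFpc libraries of the screen at 2 h, but there 10 of 40 members fell, with a median of -0.26, where 34 fell with a median of -2.86 in the time course. The difference between the 2 experiments was not tested, and their PBS libraries were taken at 2 h and at 24 h. Top2a, like Mki67 a G2/M gene, fell meanwhile from 76.7 and 88.8 CPM to 13.1 and 19.8 CPM at 2 h (log2 change -2.33, SE 0.43, adjusted p 0.00097). The count of 2 at 4 h was 0 without either PBS library and 1 without either 4 h library.

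**Figure D5:**
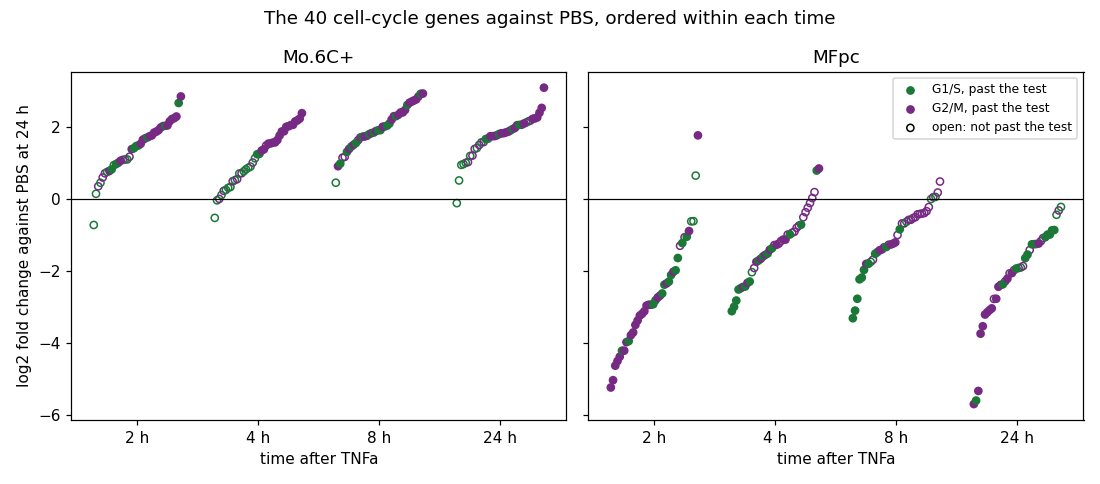
Log2 change against PBS at 24 h of the 40 members at each time after TNFa, ordered by value within each panel, for Mo.6C+ and MFpc. Green points are G1/S and purple points G2/M genes, and open points did not pass the test. In Mo.6C+ nearly all points lie above 0, and in MFpc nearly all lie below it, with Mki67 above 0 at 2 and 4 h.

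An interaction term over 13914 genes tested the difference between the cell types. The change was more positive in Mo.6C+ than in MFpc for 35, 25, 31 and 35 members at 2, 4, 8 and 24 h and less so for 0 (4.94%, 4.06%, 4.79% and 2.01% of all genes). Smc2, a condensin subunit, differed by 5.16 at 2 h (SE 0.62, adjusted p 4.8e-05), Bub1b by 3.97 at 4 h (SE 0.57, adjusted p 0.00023) and Mcm4 by 3.43 at 8 h (SE 0.36, adjusted p 8.3e-06). Mcm4 then measured 146 and 80.9 CPM in Mo.6C+, from 39.2 and 37.4 CPM with PBS, and 26.8 and 26.5 CPM in MFpc, from 90.03 and 94.6 CPM, each in the fit of its own cell type. Mki67 did not pass at 2 h (0.54, adjusted p 0.428) or 4 h (0.79, adjusted p 0.267), passed at 8 h (2.16, adjusted p 0.00178), and had the smallest adjusted p of the members at 24 h (4.07, SE 0.41, adjusted p 1.4e-05). Without Mo.6C+ PBS library 2 the counts at 4, 8 and 24 h were 14, 20 and 22, and the 4 h count was 10 without Mo.6C+ 4 h library 2 or MFpc 4 h library 1.

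Sums of marker lists also differed between groups of the time course. In Mo.6C+ the monocyte list (8 genes) summed to 15657 to 16096 CPM with PBS and 8574 to 12667 CPM with TNFa. The peritoneal macrophage list (9 genes) summed to 403 to 457 CPM with PBS and 4850 to 7752 CPM at 2 h. The progenitor list summed to 71 to 91 CPM with PBS and 14 to 48 CPM with TNFa. The erythroid list summed to 19 and 113 CPM with PBS and 3 to 49 CPM with TNFa. The red pulp macrophage list summed to 560 to 604 CPM with PBS and 4712 to 6057 CPM at 2 h, the neutrophil list to 371 to 378 and 1531 to 1880 CPM, and the CD8+ dendritic cell list to 561 and 68 to 78 CPM. In MFpc the peritoneal macrophage list summed to 23230 to 23734 CPM with PBS and 48541 to 71556 CPM with TNFa, the neutrophil list to 496 to 515 CPM with PBS and 1684 to 1774 CPM at 2 h, and the red pulp macrophage list to 215 to 239 CPM with PBS and 701 to 981 CPM at 2 and 4 h. The CD8+ dendritic cell list was lower, at 124 to 126 CPM with PBS and 29 to 69 CPM with TNFa. The T, NK, B and erythroid lists were at or under 6 CPM in MFpc. The part of these lists in the results was not tested.

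Other cell-cycle lists gave these counts in the time course. At 2 h 19.7% of all genes rose in Mo.6C+, and 18.1% rose and 18.1% fell in MFpc. The share that fell in Mo.6C+ is not given here. At 2 h 18 of 34 other mitosis genes rose and 1 fell in Mo.6C+, while 0 of 33 rose and 28 fell in MFpc. At 4, 8 and 24 h 13, 20 and 13 of them rose in Mo.6C+ and 2, 1 and 0 fell. In MFpc 0 rose and 10, 3 and 15 fell at these times. Of 26 other replication genes 7 rose and 2 fell in Mo.6C+ at 2 h, and 0 rose and 23 fell in MFpc. At 4, 8 and 24 h 2, 8 and 4 of them rose in Mo.6C+ and 2, 0 and 0 fell. In MFpc 0 rose and 21, 18 and 5 fell at these times. The next 2 lists are given at 2 h only. Of 25 regulators 8 rose and 4 fell in Mo.6C+, with Ccnd2, a D-type cyclin, at 4.81 and Myc at 2.46, and 4 rose and 12 fell in MFpc, with Myc at 1.87 and Ccnd1 at -2.58. Of 15 inhibitor genes 6 rose and 5 fell in Mo.6C+, with Cdkn1a at 3.96 and Foxo3 at -3.29. In MFpc 7 of 16 rose and 5 fell, with Cdkn1a at 2.20 and Gadd45b at 6.10.

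The Mo.6C+ libraries of the screen, sorted 2 h after TNFa and set against PBS at 2 h, had 1 member raised and 8 lowered (24.3% and 24.4% of all genes). Of the 40 members 36 had a negative log2 change, and the median was -1.27. Mki67 measured 60.6, 14.7, 18.4, 14.0 and 5.55 CPM with PBS and 48.4, 26.5 and 33.6 CPM with TNFa (log2 change 0.68, adjusted p 0.275). Top2a measured 86.2, 22.8, 12.1, 10.4 and 0 CPM with PBS and 8.23, 14.5 and 24.4 CPM with TNFa (-0.75, adjusted p 0.537). PBS library 1 was far above the other 4 in both genes. In the time course at 2 h, against PBS at 24 h, 39 of the 40 members had a positive log2 change, with a median of 1.49. Most members thus had log2 changes of opposite sign in the 2 experiments, with PBS library 1 of the screen included. In the screen the summed CPM of the members was 1770 in that library and 350 to 564 in the other 4 with PBS. With TNFa it was 329 to 597, which overlaps those 4. The 2 experiments were separate, and the difference between them was not tested.

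The fourth comparison set LPS against control in Mo.6C+, with 11068 genes tested. With LPS 3 members fell and 0 rose (8.38% and 10.2% of all genes), and 9 had an unadjusted p under 0.05. Ncapd2 went from 28.5, 18.0 and 32.4 CPM to 9.42, 2.14 and 9.69 CPM (log2 change -1.89, SE 0.52, adjusted p 0.0313). Aurkb went from 27.2, 44.3 and 28.6 CPM to 14.3, 13.1 and 17.4 CPM (-1.16, SE 0.32, adjusted p 0.032). Mcm7 went from 50.3, 55.1 and 46.8 CPM to 18.6, 12.8 and 32.1 CPM (-1.26, SE 0.35, adjusted p 0.033). The groups did not overlap for these 3 genes, but leaving out control library 1 or 3 or LPS library 2 left 0 members past the threshold.

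Mki67 measured 34.5, 32.0 and 45.3 CPM in controls and 42.5, 35.8 and 70.0 CPM with LPS (log2 change 0.41, adjusted p 0.417). Top2a (-0.66, adjusted p 0.192), Mcm5 (-0.05, 0.939), Ccnb2 (0.12, 0.847) and Rrm2 (-1.07, 0.12) did not pass either. In 7 of the 40 members each LPS library lay below each control (20% of all genes), and in 1, Mcm4, above (18.4%). Of 34 other mitosis genes 0 rose and 6 fell (10.2% and 8.38% of all genes), with Racgap1 at -1.84 and Esco2 at -2.73. Among regulators Ccnd2 rose by 4.59, and among inhibitors Cdkn1a by 3.50. The progenitor list summed to 95 to 106 CPM in controls and 37 to 45 CPM with LPS, and the CD8+ dendritic cell list to 451 to 756 and 202 to 329 CPM. Other lists were higher with LPS: that of peritoneal macrophages summed to 358 to 423 CPM in controls and 2172 to 2500 CPM with LPS, that of red pulp macrophages to 765 to 983 and 1758 to 3161 CPM, that of neutrophils to 243 to 387 and 753 to 1096 CPM, that of mast cells to 6 to 17 and 83 to 248 CPM, and that of NK cells to 39 to 54 and 107 to 251 CPM. The part of these lists in the result was not tested.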

How the data were processed

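The files hold raw counts of reads per gene symbol, whole numbers deposited by the authors for 209 libraries and 55011 genes. The submitters' processing notes name STAR 2.7.3a, featureCounts and mm10 as aligner, counter and build. Not given in the sources used here are the counter's version, the annotation, whether strand was used, and what became of multiply matching reads, so members that overlap another gene on either strand are uncertain. The group and number of each library were taken from its title. Titles place most types in the spleen where a tissue label names the peritoneal cavity.

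Members and lists were chosen with earlier results of these data known. Genes were kept by edgeR's filter for low counts, libraries were scaled by TMM factors, and edgeR 4.0.16 (R 4.3.3) quasi-likelihood tests were adjusted over all genes tested in a fit by the Benjamini-Hochberg method, with a threshold of 0.05. Fits took all libraries of a cell type, all PBS libraries, or the libraries of an experiment. SE is the log2 change divided by the square root of the F statistic. Mean log2 CPM used a prior count of 2. A group with no count was set at 3 counts over the group. Counting intervals are exact at 95% and cover counting error only. The fits were tested on simulated data. Alternatives were DESeq2 1.42.0, its size factors, no filter, the replicate number as a block, and leaving out each library. Correlations between same-numbered libraries were not over 0.1 in every pair, so numbers were not used as pairs. In each comparison the members named are among the 8 with the smallest adjusted p past the threshold, together with Mki67, Top2a, Mcm5, Ccnb2 and Rrm2; other genes that are named were chosen after their values were seen. Among 251 pairs of libraries of a group, 0 were identical. Promoter windows came from RefSeq's table, gene positions from GENCODE vM21 (GRCm38).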

Additional observations from a re-analysis of the deposited data

Results flagged for a closer look

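The mean log2 CPM of the 40 members in Treg with PBS was 5.62 in library 1, while the other 4 libraries lay between 4.59 and 4.70, a gap beyond Dixon's 95% limit for 5 values. In T.8 with PBS it was 4.82 in library 2, and the other 3 lay between 3.73 and 3.86, beyond the limit for 4 values. Chance passes this limit in about 1 of 20 groups, and 14 groups were looked at.

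Responses that differed between cell types by an interaction term were 1 member for IL1b, 14 for IL6 and 2 for TNFa between GN and Mo.6C+ in the screen, where 6.89%, 3.3% and 15% of all genes differed in the same direction. Between Mo.6C+ and MFpc in the time course they were 35 members at 2 h, 25 at 4 h, 31 at 8 h and 35 at 24 h after TNFa, beside 4.94%, 4.06%, 4.79% and 2.01% of all genes.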

How the results depend on the processing

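With the low-count filter removed, the members raised in GN were 9 with IL1b, 33 with IL6, and 21 fell with TNFa. IL6 exceeded IL1b in 21 and IL1b exceeded TNFa in 28, the response differed between GN and Mo.6C+ in 12 (IL1b), 35 (IL6) and 6 (TNFa), and Mo.6C+ at 24 h had 37 raised. Without the filter pDC had 17 lower with PBS, and outside GN IL1b gave 11 raised and 46 lowered calls over 12 types, and over 13 types IL6 gave 50 lowered and TNFa 143 lowered. DESeq2 gave 2 raised with IL1b and 10 lowered with TNFa in GN, 4 for IL6 over IL1b, 3 for the IL1b response, 34 raised in Mo.6C+ at 24 h, 16 lower in pDC, and 10 and 88 lowered calls with IL6 and TNFa in the other types. Without the 3 haemoglobin-rich libraries, an alternative chosen after seeing the data, MFrp had 3 higher. The cause of these shifts was not tested beyond the number of genes and libraries in each fit.

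With the replicate block, GN had 1 member raised with IL6, 0 raised with TNFa, and a Mcm5 value of -0.25 with IL1b, and the other types had 17 and 7 lowered calls with IL1b and IL6. Correlations of same-numbered GN libraries ran from -0.163 to 0.0746, and 0 of 18 passed 0.1. This does not show whether same-numbered libraries share more than a number. As a hint from the data, 40 of 66 PBS libraries, 14 of 20 time-course libraries and 3 of 14 GN libraries correlated best with their own number.

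Leaving out each library in turn gave these ranges. In GN, members raised ran from 0 to 17 with IL1b and from 2 to 30 with IL6, and members lowered with TNFa from 2 to 10. Between cytokines the ranges were 0 to 2 and 0 to 1 (IL6 over and under IL1b) and 3 to 19 (IL1b over TNFa). The GN and Mo.6C+ responses differed in 0 to 9 (IL1b) and 3 to 31 (IL6). In Mo.6C+ at 2, 4, 8 and 24 h, members raised ran from 16 to 29, 4 to 22, 17 to 38 and 0 to 32. In MFpc they ran from 1 to 2 at 2 h and 0 to 2 at 4 h, and members lowered from 12 to 26, 10 to 19 and 11 to 30 at 4, 8 and 24 h. Differences between these types ran from 10 to 32, 20 to 35 and 22 to 37 at 4, 8 and 24 h, and from 9 to 21 with PBS. With LPS, 0 to 1 were raised and 0 to 2 lowered. With PBS, members lower ran from 6 to 16 in Mo.6C+, 16 to 28 in GN, 5 to 10 in pDC, 8 to 14 in B.fo and 17 to 45 over the 10 pairs. In the other types, calls ran from 2 to 7 raised and 2 to 10 lowered with IL1b, 0 to 1 and 1 to 6 with IL6, and 5 to 7 and 33 to 93 with TNFa. Where 1 library was left in a group, its spread was taken from the other groups.

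Signs turned only in members that had not passed the test. Over the libraries left out, the difference between GN and Mo.6C+ ran from -0.27 to 0.87 for Mki67 with IL1b, from -0.23 to 0.85 for Mki67 with TNFa, and from -2.18 to 1.34 for Rrm2 with TNFa. Mki67 turned without Mo.6C+ PBS library 1 (both cytokines, -0.27 and -0.23) or GN IL1b library 2 (-0.03), and Rrm2 without Mo.6C+ TNFa library 3 (1.34), GN PBS library 1 (1.23) or GN TNFa library 3 (0.23). In MFpc at 8 h, Ccnb2 ran from -0.14 to 0.26 and Rrm2 from -0.68 to 0.46, and both turned without PBS library 2 (-0.14 and -0.24) or 8 h library 1 (-0.07 and -0.68). With LPS, Mcm5 ran from -0.39 to 0.17 and Ccnb2 from -0.16 to 0.32. Mcm5 turned without control library 1 (0.0022) or LPS library 1 (0.17) or 2 (0.12), and Ccnb2 without control library 1 (-0.04) or LPS library 1 (-0.16). Of 184 gene results past the threshold, 3179 of 3393 alternatives kept the call and direction, 214 lost the call and 0 turned. Depth limits the members with few counts, most of all in GN, where 21 to 25 of the 40 had a count with TNFa.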

Other observations

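Replicate numbers of the PBS libraries, which the labels do not explain, were set beside the level of the members, and a link was not tested. Number 5 was the lowest of its cell type in 6 of the 12 types that have it and the highest in 0. Number 1 was the highest in 5 of 13 and the lowest in 1. Number 2 was the highest in 4 and the lowest in 2 of 14. Numbers 3 and 4 were the highest in 3 and 2 types and the lowest in 2 and 3.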
